A study of Mus musculus with 12 samples.

Results

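The endothelin system comprised 7 of the 50559 genes in the retinal count table, chosen by symbol: the ligands Edn1, Edn2 and Edn3, the receptors Ednra and Ednrb, and the endothelin-converting enzymes Ece1 and Ece2. All 7 were found, and all 7 passed the filter on low counts in every comparison. The values are reads per gene in 12 RNA-Seq libraries of whole retinas collected at postnatal day 28 from WT C57BL6/J mice, with 3 libraries in each of 4 groups. IgG mice received 30 µg of isotype IgG at day 1, and APB5 mice received 30 µg of a rat monoclonal antibody against mouse PDGFRβ (clone APB5), the receptor that recruits pericytes to growing vessels. IgG+Mino and APB5+Mino mice received the same IgG or APB5 injection and then daily intraperitoneal minocycline, a tetracycline, from day 5 to day 27, at a labelled dose of 45 mg/kg. The design asks how blocking pericyte recruitment changed the retina and how minocycline altered that change. APB5 acts on every cell that carries PDGFRβ, and neither agent is restricted to a cell type.

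Endothelins are short secreted peptides that are cut from longer precursors in a pair of steps, first by furin-like convertases and then by the endothelin-converting enzymes. Endothelin-1, made largely by endothelial cells, is a strong vasoconstrictor, and pericytes and smooth muscle respond to it through the A receptor. In the retina, Edn2 is known as a transcript that photoreceptors induce under stress or injury, and the B receptor is carried by glia. Edn3 with the B receptor is best known for the development of melanocytes and enteric neurons.

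The 3 ligands have closely related mature peptides. The stretches that encode them, in exon 2 of 5, are shown for how alike they are, with capitals marking the 4 cysteine codons that hold the folded peptide together. They are given 5′ to 3′ from the forward strand of GRCm39 for Edn1 (chr13:42457125-42457187), Edn2 (chr4:120019148-120019210) and Edn3 (chr2:174603542-174603604).
Edn1: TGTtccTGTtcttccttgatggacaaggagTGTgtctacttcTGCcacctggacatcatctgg
Edn2: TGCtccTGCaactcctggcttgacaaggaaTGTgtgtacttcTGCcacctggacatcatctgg
Edn3: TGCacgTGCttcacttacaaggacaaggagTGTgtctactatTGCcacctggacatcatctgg
Edn1 and Edn2 had the same base at 53 of 63 positions and encoded the same residue at 18 of 21, against 50 bases and 15 residues for Edn1 with Edn3 and 48 bases and 15 residues for Edn2 with Edn3. In the same build Ednra lies on the reverse strand at chr8:78386590-78451552 (8 exons), Ednrb on the reverse strand at chr14:104052053-104081900 (7 exons), Ece1 on the forward strand at chr4:137589530-137692542 (20 exons) and Ece2 on the forward strand at chr16:20448332-20465273 (19 exons).

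Total counts ranged from 52740545 to 59411044 per library, at which 3 counts equal 0.0456 to 0.0585 CPM (reads scaled to a common depth with TMM factors). APB5 replicate 3 stood apart, at 126.9 on the first principal component against −53.8 to 25.6 for the other 11 libraries, so each result was also computed without it. Xist, the RNA that silences an X chromosome in females, was high in all 3 IgG libraries, in no IgG+Mino library, and in replicate 3 alone of both APB5 and APB5+Mino. In IgG+Mino against IgG, minocycline and the sex of the animals therefore cannot be told apart, and in APB5 against IgG without APB5 replicate 3 neither can APB5 and sex. Pdgfrb, whose protein APB5 blocks, lay at 12.8 to 20.1 CPM in IgG and 15.4 to 38.6 CPM in APB5, with a log2 fold change of 0.60 ± 0.38 (SE, edgeR adjusted p = 0.707). Rod markers were present in every library, with 10 of 10 rod genes detected. The study describes its replicates as mice, although the labels do not say so, and p-values measure the spread between these libraries.

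In control retinas the converting enzymes were the most abundant transcripts of the system per length, and the A receptor the least. Levels per kilobase of transcript in IgG were 12.6 ± 1.44 CPM per kb for Ece1 and 11.3 ± 0.751 for Ece2 (SD, n = 3), and the libraries of these 2 genes overlapped. Edn2 followed at 5.68 ± 2.23 CPM per kb and Edn1 at 2.33 ± 0.599. Ednrb stood at 0.975 ± 0.130 CPM per kb, Edn3 at 0.470 ± 0.146 and Ednra at 0.152 ± 0.0373. From Ece2 downward, no 2 neighbours in this order overlapped in the IgG libraries. APB5 moved Edn2 to the top of the order, at 20.5 to 59.4 CPM per kb against 13.0 to 18.4 for Ece1.

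**Figure D1:**
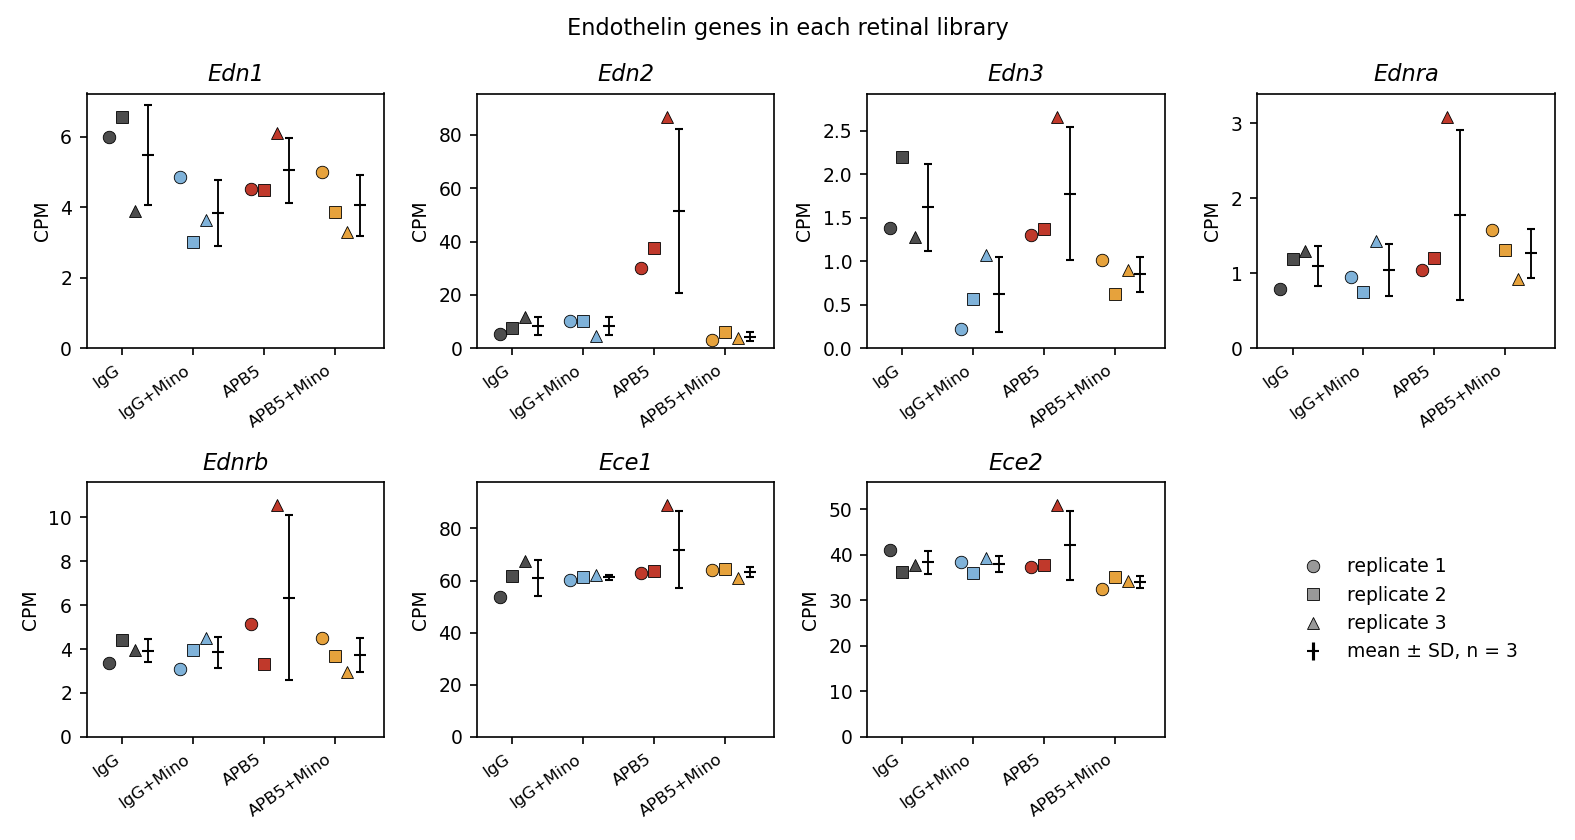
CPM (linear axis from 0) of the 7 endothelin genes in the 12 retinal libraries, with 1 panel per gene, a point shape for each replicate number, and the mean ± SD of 3 libraries beside the points. Edn2 lies at 29.9, 37.6 and 86.8 CPM in APB5 and at most at 11.8 CPM in every other library, and for Edn2, Edn3, Ednra, Ednrb, Ece1 and Ece2 the highest library of all is APB5 replicate 3.

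Edn2, the endothelin of stressed photoreceptors, was the member that separated the groups. In the order of replicates 1 to 3, its counts were 307, 439 and 684 in IgG and 570, 578 and 247 in IgG+Mino. They were 1657, 2059 and 5706 in APB5 and 168, 319 and 205 in APB5+Mino. Every APB5 library lay above the other 9 libraries, and IgG, IgG+Mino and APB5+Mino overlapped one another. On the scaled level this was 8.30 ± 3.26 CPM in IgG, 8.35 ± 3.33 in IgG+Mino, 51.4 ± 30.9 in APB5 and 4.36 ± 1.67 in APB5+Mino (SD, n = 3). The mean of APB5 was 6.20-fold that of IgG and 11.8-fold that of APB5+Mino, and the lowest APB5 library was 2.53-fold the highest IgG library.

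The Edn2 difference between APB5 and IgG was large but did not pass the test. Its log2 fold change was 2.64 ± 0.469 (SE, 95% interval 1.54 to 3.74, unadjusted p = 0.000659, edgeR adjusted p = 0.664), the 13th smallest p among 20350 genes. None of the 7 members was called, a call being an adjusted p of 0.05 or less together with a change of 2-fold or more (1 log2 unit). The background share was 0%, since edgeR called 0 of 20350 genes, while 7.23% had an unadjusted p under 0.05 and DESeq2 called 87 genes. Edn2 was the 1 member whose groups did not overlap, in a comparison where 15.7% of all genes did not and 7.84% lay higher in this way. DESeq2 called Edn2 (log2 fold change 2.63, adjusted p = 4.07e-06), and so did edgeR once Xist entered the model of all 12 libraries (2.95, adjusted p = 0.00648). The Xist fit called 1061 genes higher and 124 lower. High and low Xist libraries were mixed only in APB5 and APB5+Mino, through replicate 3. That fit therefore cannot fully part Xist from what sets APB5 replicate 3 apart. Without APB5 replicate 3 the log2 fold change of Edn2 was 2.03 ± 0.296 (edgeR adjusted p = 0.107), with all IgG libraries then high in Xist and both APB5 libraries low.

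Edn2 was lower with minocycline in APB5 retinas, by the largest difference of any member. The log2 fold change of APB5+Mino against APB5 was −3.57 ± 0.490 (SE, 95% interval −4.73 to −2.40, edgeR adjusted p = 0.0430), and the highest APB5+Mino library (6.22 CPM) lay under the lowest APB5 library (29.9 CPM). It was the 1 member of 7 called, where edgeR called 1.66% of 20281 genes in all, 0.819% of them as lower. Same-numbered APB5 and APB5+Mino libraries deviated together, and with the replicate number as a block Edn2 missed the threshold (log2 fold change −3.46, adjusted p = 0.0641), as did every other gene. The call was also lost without APB5 replicate 1 (adjusted p = 0.105) and without APB5+Mino replicate 1 (0.117), 2 (0.214) or 3 (0.205), and it held without APB5 replicate 3 (−2.96, adjusted p = 0.000455).

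In IgG retinas Edn2 showed no difference with minocycline beyond the spread, with a log2 fold change of 0.016 ± 0.345 (95% interval −0.757 to 0.789, edgeR adjusted p = 0.990). The direct test of whether minocycline acted differently after APB5 gave a difference of log2 fold changes of −3.57 ± 0.647 (95% interval −4.98 to −2.16, unadjusted p = 0.000125, edgeR adjusted p = 0.114). That is the 22nd smallest p among 21228 genes, of which 0.0141% were called, and it does not pass the correction. On the IgG side of this test, minocycline and the sex of the animals cannot be told apart, so the difference may carry both. Between the minocycline-treated groups Edn2 was at −0.94 ± 0.346 in APB5+Mino against IgG+Mino (edgeR adjusted p = 0.112), where the libraries overlapped and 1.24% of genes were called. The comparisons share libraries, so these values are not independent of one another.

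Rod markers moved with Edn2 in a single library. The summed level of the 10 rod genes was 63959, 54891 and 14233 CPM in APB5 replicates 1 to 3, against 56357 to 80006 in IgG, 67189 to 70899 in IgG+Mino and 52430 to 56289 in APB5+Mino. The library with the highest Edn2 therefore had the lowest rod level, while APB5 replicates 1 and 2 had Edn2 of 29.9 and 37.6 CPM at rod levels within or just under the IgG range. In whole retina, fewer cells of a type and less RNA per cell cannot be told apart. The 9 microglial markers summed to 69.3, 67.0 and 363 CPM in APB5, 53.8 to 82.2 CPM in IgG and 25.3 to 28.6 CPM in APB5+Mino, and all 9 lay lower without overlap in APB5+Mino against APB5, where 23.3% of all genes did. The 5 astrocyte markers summed to 193 to 1109 CPM in APB5 against 67.5 to 100.04 CPM in the other groups. Most of this sum in APB5 was Gfap, a glial filament gene, at 129.6, 146.5 and 1028 CPM in replicates 1 to 3. The paper reports GFAP fibers in Müller cells after APB5, so the sum is not a measure of astrocytes alone. The part of rod, microglial and glial marker levels in the Edn2 result was not tested.

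**Figure D2:**
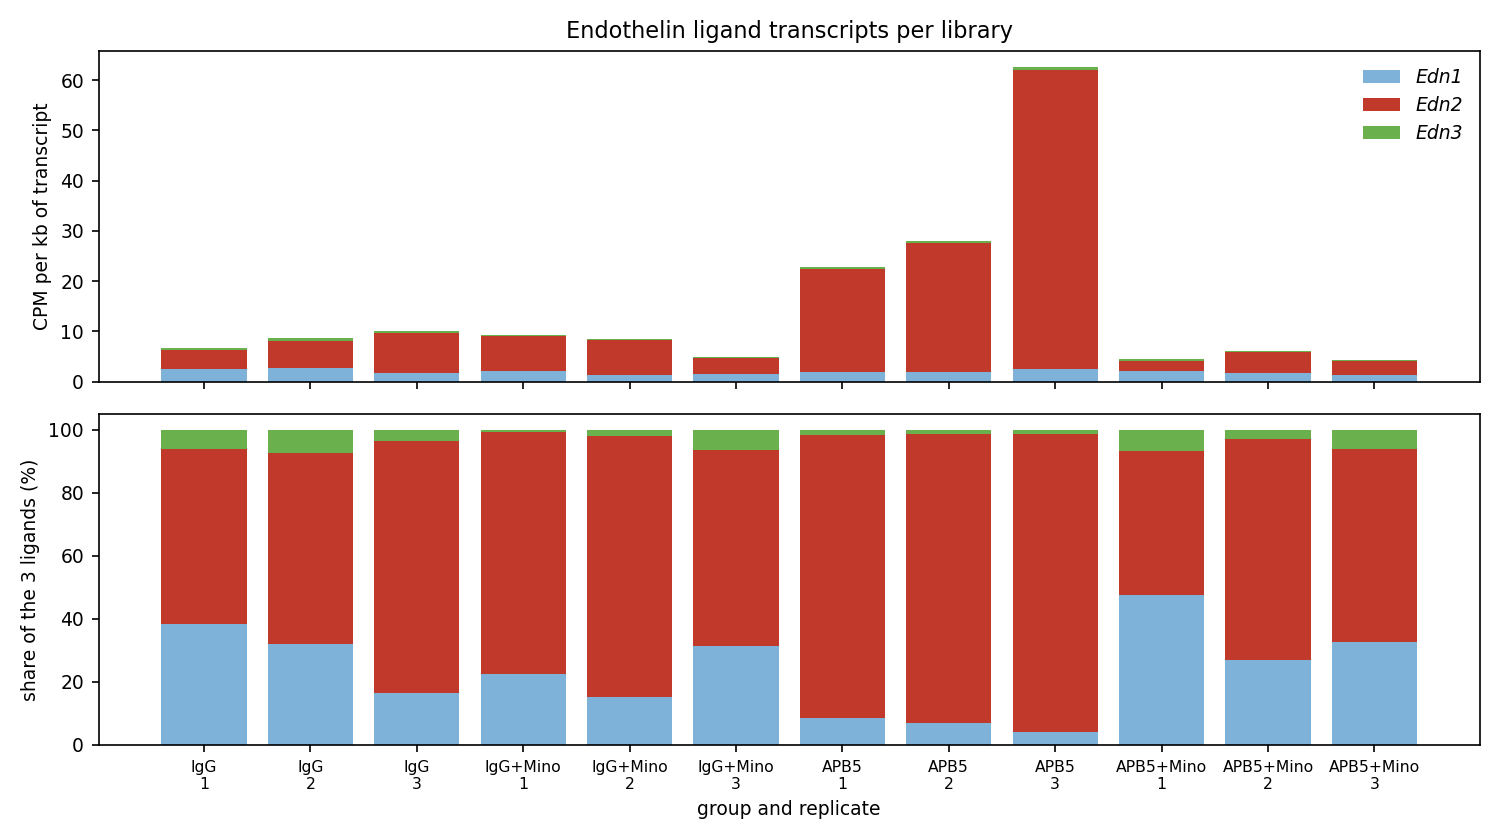
Stacked bars of Edn1, Edn2 and Edn3 in each of the 12 libraries, as CPM per kb of transcript (upper panel) and as a share of the 3 ligands in percent (lower panel). Edn2 makes up 89.9% to 94.6% of the ligand transcripts in APB5 and 45.8% to 82.8% in the other 9 libraries, and the ligand total is 22.8 to 62.7 CPM per kb in APB5 against 4.31 to 10.1 elsewhere.

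Edn2 held the largest share of the endothelin ligand transcripts in 11 of 12 libraries. Its share of ligand transcripts per length was 55.5%, 60.6% and 80.0% in the IgG libraries and 89.9%, 91.8% and 94.6% in APB5. In APB5+Mino it was 45.8%, 70.0% and 61.3%, and in APB5+Mino replicate 1 Edn1 was ahead at 47.6%. The mean share was 65.4% ± 12.9 in IgG and 92.1% ± 2.38 in APB5 without overlap, with an exact two-sided permutation p of 0.1, the smallest that 3 against 3 libraries can give.

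Edn1, the endothelial vasoconstrictor, showed no difference between groups beyond the spread. Its counts in replicates 1 to 3 were 341, 374 and 225 in IgG, 266, 171 and 199 in IgG+Mino, 250, 246 and 402 in APB5, and 280, 198 and 175 in APB5+Mino. The groups overlapped in all 4 pairwise comparisons. The log2 fold change was −0.11 ± 0.269 in APB5 against IgG (95% interval −0.743 to 0.514), −0.32 ± 0.231 in APB5+Mino against APB5, and −0.51 ± 0.253 in IgG+Mino against IgG, with edgeR adjusted p of 0.918, 0.347 and 0.586.

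Edn3, the ligand of melanocyte development, was low and lay lower with minocycline in both backgrounds, although neither difference passed the correction. Its counts in replicates 1 to 3 were 79, 125 and 74 in IgG and 12, 32 and 59 in IgG+Mino. They were 72, 75 and 175 in APB5 and 57, 32 and 48 in APB5+Mino. No minocycline library reached the lowest library of its own untreated group. In IgG+Mino against IgG the log2 fold change was −1.37 ± 0.490 (unadjusted p = 0.0198, edgeR adjusted p = 0.585), in a comparison where 0.0298% of genes were called and 7.48% lay lower without overlap. With Xist as a covariate it was −0.81 (adjusted p = 0.737).

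After APB5, the log2 fold change of Edn3 with minocycline was −1.07 ± 0.373 (95% interval −1.95 to −0.186, edgeR adjusted p = 0.0948). Edn3, Edn2 and Ece2 were the 3 of 7 members lower without overlap here, against 23.3% of all genes. DESeq2 called Edn3 (adjusted p = 0.0465), and without APB5 replicate 3 the log2 fold change was −0.65 (edgeR adjusted p = 0.113). The summed level of the 6 melanocyte markers also lay lower in APB5+Mino, at 13.9 to 32.8 CPM against 44.7 to 414 CPM in APB5, but IgG (52.4 to 135 CPM) and IgG+Mino (19.1 to 100.5 CPM) overlapped. All 6 melanocyte and all 7 pigment epithelium markers were detected, and the pigment epithelium sum was 784 CPM in APB5 replicate 3 against 50.4 to 205 CPM in the other 11 libraries. The part of pigment cell content in the Edn3 values was not tested.

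The receptors were highest in APB5 replicate 3, and neither separated the APB5 group from the others. Ednra, the A receptor, had 58, 66 and 203 counts in APB5 replicates 1 to 3 and 43 to 88 counts in the other 9 libraries. Ednrb, the B receptor, had 284, 182 and 694 counts in APB5 and 158 to 252 counts in the others, so that APB5 replicate 1 also lay above the other groups and replicate 2 did not. For both genes APB5 overlapped IgG, IgG+Mino and APB5+Mino. The log2 fold changes in APB5 against IgG were 0.72 ± 0.472 for Ednra (edgeR adjusted p = 0.711) and 0.70 ± 0.414 for Ednrb (adjusted p = 0.695). Without APB5 replicate 3 they were 0.049 and 0.11.

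No difference with minocycline was detectable in either receptor. In APB5+Mino against APB5 Ednra was at −0.50 ± 0.467 (edgeR adjusted p = 0.462) and Ednrb at −0.77 ± 0.425 (adjusted p = 0.227), and without APB5 replicate 3 Ednra changed sign to 0.17 and Ednrb was at −0.19. In IgG+Mino against IgG the 95% intervals were −0.795 to 0.685 for Ednra and −0.490 to 0.461 for Ednrb. Per length, Ednrb was 4.92 to 9.33 times as abundant as Ednra across the 12 libraries. The sum of the pericyte and smooth muscle markers was also highest in APB5 replicate 3, at 499.96 CPM against 81.3 to 144 CPM in the other 11 libraries, and all 11 of these markers were detected. Rgs5, Acta2 and Tagln gave most of it, at 164, 163 and 81.4 CPM. Of the 10 markers tested in APB5 against IgG, 8 had a positive and 2 a negative log2 fold change. Kcnj8 was lower without overlap, at 2.06 to 3.09 CPM in APB5 against 3.49 to 3.94 CPM in IgG. The part of these markers in the receptor values was not tested.

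The converting enzymes, which release the active peptides, varied least. Ece1 had 3064, 3529 and 3911 counts in IgG, 3493, 3481 and 5849 in APB5 and 3242 to 3597 in the minocycline groups. Ece2 had 2349, 2062 and 2181 counts in IgG, 2071, 2076 and 3348 in APB5 and 1807 to 2157 in the minocycline groups. Apart from APB5 replicate 3, the libraries spanned 53.7 to 67.5 CPM for Ece1 and 32.5 to 41.2 CPM for Ece2. In APB5 against IgG the log2 fold changes were 0.24 ± 0.176 for Ece1 (edgeR adjusted p = 0.732) and 0.14 ± 0.161 for Ece2 (adjusted p = 0.823).

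Ece2 was the lower of the enzymes with APB5 and minocycline together, by a small margin. It stood at 34.0 ± 1.40 CPM in APB5+Mino, under all APB5 libraries (37.4 to 50.9 CPM) and all IgG+Mino libraries (36.1 to 39.4 CPM). The log2 fold changes were −0.31 ± 0.143 against APB5 (edgeR adjusted p = 0.165) and −0.16 ± 0.0853 against IgG+Mino (adjusted p = 0.243), the latter in a comparison where 17.2% of genes lay lower without overlap. Ece1 lay at −0.19 ± 0.151 against APB5 (adjusted p = 0.390). The differences from APB5 were −0.15 for Ece2 and −0.0057 for Ece1 without APB5 replicate 3. Ece2 shares its strand with a readthrough gene and Ece1 overlaps antisense genes, and how their reads were divided is not given in the sources used here.

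**Figure D3:**
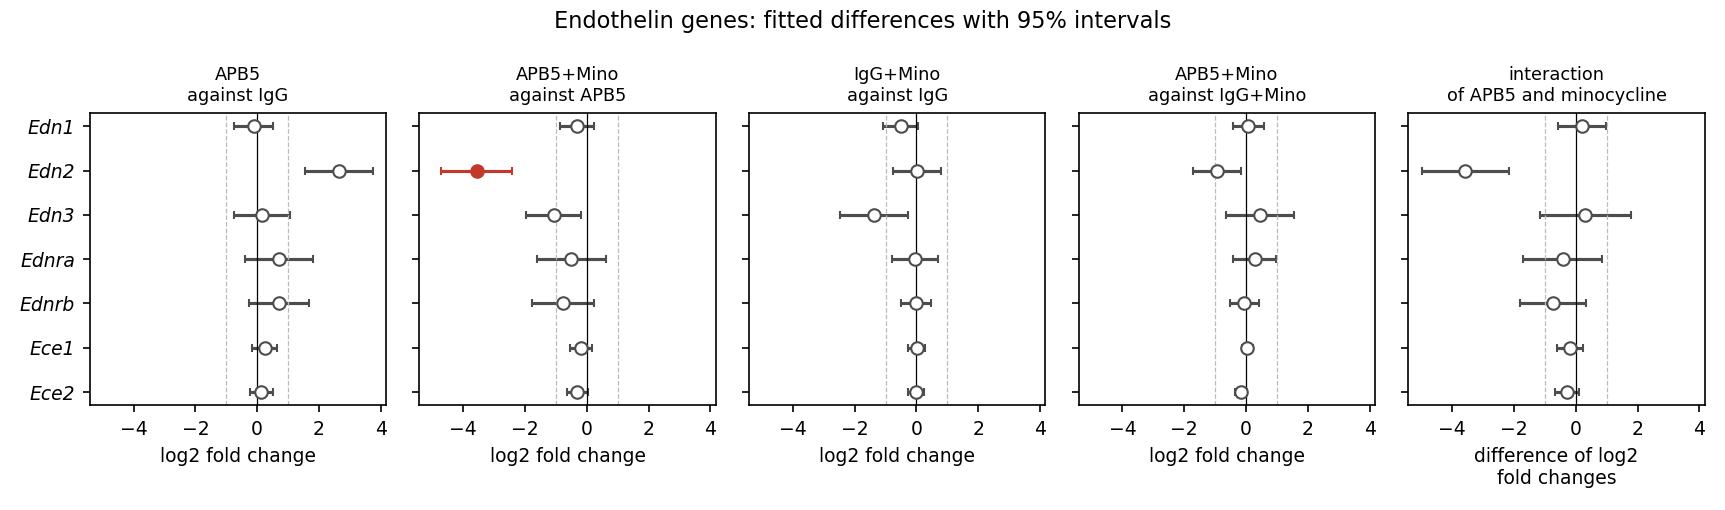
Log2 fold changes with 95% intervals of the 7 endothelin genes in 4 pairwise comparisons and, in the last panel, the difference of log2 fold changes between them; filled red points were called (adjusted p of 0.05 or less, beyond the dashed lines at 1 log2 unit). Edn2 in APB5+Mino against APB5, at −3.57, is the single filled point among the 35 shown.

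The transcript tables give the authors' mean signal of each RefSeq transcript per group, with no replicate spread, so these values carry no test. No label ties their columns to groups, which were taken from the order of the group names in each table's title. So assigned, the signal of Edn2 was 481 in IgG and 3035 in APB5, and 3066 in APB5 and 233 in APB5+Mino. That of Edn3 was 91.8 in IgG and 34.8 in IgG+Mino. Each of these pairs lies in the same order as the gene counts. Edn1, Edn2, Edn3 and Ednra each had 1 transcript. For Ece1, NM_001369177 held 77.2% of the signal in IgG and 81.4% in APB5, against 59.0% in IgG+Mino and 47.3% in APB5+Mino. NM_001369179 held 15.2%, 8.88%, 29.8% and 38.7% in the same order of groups. Both minocycline groups thus had the lower share of NM_001369177.

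For Ece2, NM_177942 held 46.5% of the signal in IgG and 20.5% to 21.9% in the other 3 groups. Ednrb came mainly from NM_007904, with 96.1% in IgG, 90.8% in IgG+Mino, 87.3% in APB5 and 94.97% in APB5+Mino. How reads were assigned among transcripts is not given in the sources used here, and the tables were normalized separately.

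**Figure D4:**
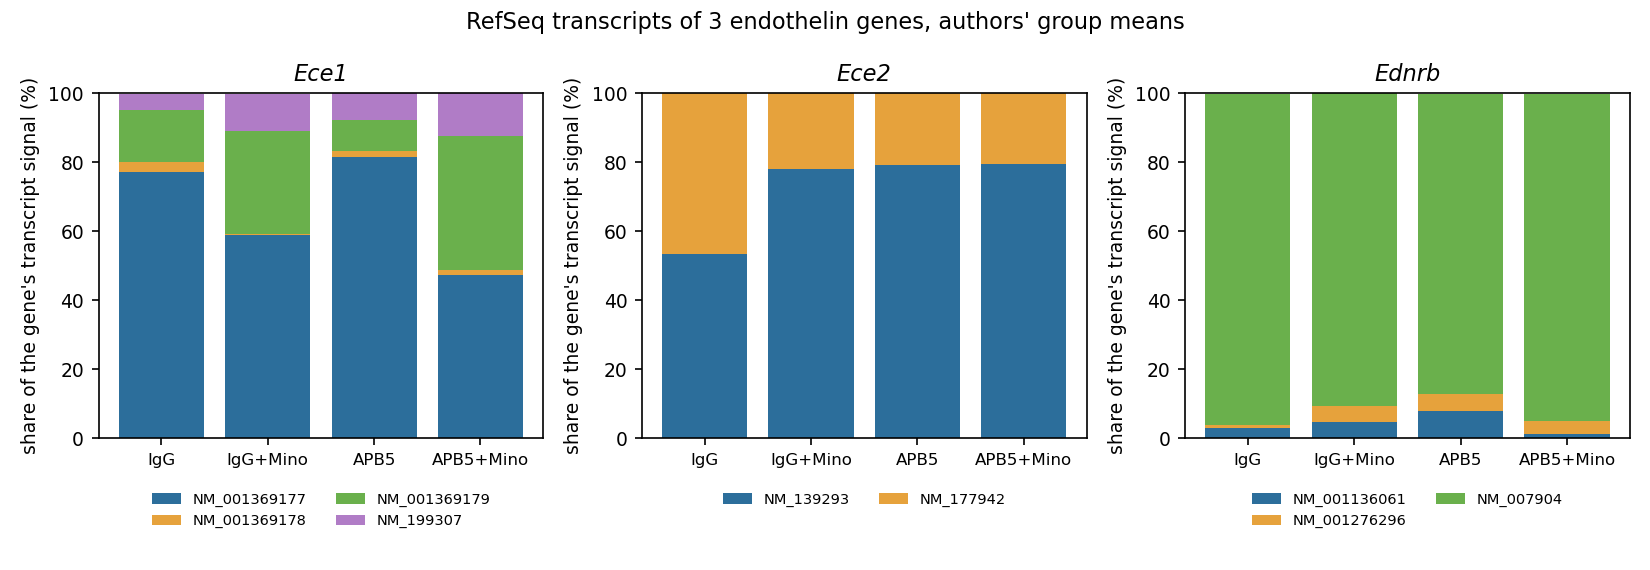
Stacked bars of the share of each RefSeq transcript in the summed transcript signal of Ece1, Ece2 and Ednrb (percent), from the authors' mean of each group, without error bars because no replicate values are used. The share of NM_001369177 of Ece1 is 77.2% in IgG and 47.3% in APB5+Mino, and that of NM_177942 of Ece2 is 46.5% in IgG and 20.5% in APB5+Mino.

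Among enzymes that process or clear endothelins, 1 convertase was higher in APB5+Mino than in APB5. Of 11 genes 9 were tested, and none was called in APB5 against IgG or in APB5+Mino against APB5. Pcsk7, a furin-like convertase, was higher in APB5+Mino (46.2 to 47.8 CPM) than in APB5 (25.6 to 32.0 CPM). Its log2 fold change of 0.71 ± 0.111 (edgeR adjusted p = 0.0447) lies under the fold threshold, and 4.82% of all genes passed the adjusted p alone. No gene passed it with the replicate number as a block or when any APB5+Mino library was left out. Furin, which makes the first cut of the precursors, stood at 76.2 ± 3.27 CPM in IgG and 94.7 ± 6.05 in APB5 (log2 fold change 0.32 ± 0.115, edgeR adjusted p = 0.664). It also stood at 92.1 ± 1.95 CPM in IgG+Mino and 93.9 ± 4.40 in APB5+Mino. The IgG libraries, at most at 78.8 CPM, thus lay under those of every other group, and the difference is not particular to APB5. The median log2 fold change of the list was 0.054 in APB5 against IgG and −0.015 in APB5+Mino against APB5, against −0.0024 and −0.021 over all genes.

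Ecel1, a neuronal relative of the converting enzymes that injured neurons induce, was high in 1 library alone. It had 41, 39 and 1139 counts in APB5 replicates 1 to 3, and 15 to 58 counts in the other 9 libraries. Its APB5 difference from IgG, 3.17 ± 1.26 log2 units (edgeR adjusted p = 0.664), rests on that library.

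Downstream of the receptors, 1 of 26 signalling genes was called in APB5+Mino against APB5, where 1.66% of all genes were, and the call was lost without APB5 replicate 3. That call was also lost when any APB5+Mino library was left out, as was every other call of this comparison. Rgs5, a pericyte gene that shortens G protein signals, had 88.9, 87.9 and 164 CPM in APB5 and 44.0, 48.8 and 40.7 CPM in APB5+Mino (log2 fold change −1.36 ± 0.258, edgeR adjusted p = 0.0461). It lies in the pericyte and smooth muscle marker list, whose summed level was 81.3 to 86.4 CPM in APB5+Mino and 141 to 499.96 CPM in APB5. None of the 26 was called in APB5 against IgG. There the smallest p-values belonged to Itpr3, a calcium release channel of the endoplasmic reticulum, at 1.15 ± 0.304, and Rgs5, at 0.69 ± 0.253, both with an edgeR adjusted p of 0.664. The list's median log2 fold change was 0.16 in APB5 against IgG and −0.072 in APB5+Mino against APB5.

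Genes of the photoreceptor injury response lay beside Edn2. Their list was chosen with earlier results of these data known. The paper itself reports Fgf2 and Gfap as higher after APB5 and lower with minocycline. The list's shares beside all genes, here and with minocycline, are therefore descriptive and no independent support. In APB5 against IgG none of the 12 was called by edgeR, but 8 lay higher without overlap, where 7.84% of all genes did, and the list's median log2 fold change was 2.28 against −0.0024 for all genes. The median was 1.15 without APB5 replicate 3, and 2 of the 12, Fgf2 and the glial filament gene Gfap, were then called, where 0.101% of all genes were. The summed level of the list was 902, 817 and 4568 CPM in APB5 replicates 1 to 3 and 453 to 1013 CPM in IgG, so that APB5 replicates 1 and 2 lay within the IgG range. The top of that range was IgG replicate 3, where Egr1 alone had 712 CPM. For Fgf2 and Gfap, among the 8 without overlap, APB5 replicates 1 and 2 lay above every IgG library. Fgf2 had 78.7 and 104.7 CPM there against at most 30.0 in IgG, and Gfap 129.6 and 146.5 CPM against at most 53.0. Fgf2, a survival factor made in injured retina, was at 25.6 ± 4.16 CPM in IgG and 112.9 ± 39.0 in APB5 (log2 fold change 2.15 ± 0.268, edgeR adjusted p = 0.322). Bcl3, a regulator of NF-κB, was at 4.05 ± 0.919 on the log2 scale (adjusted p = 0.664), with 3.90, 4.03 and 31.0 CPM in its APB5 libraries from lowest to highest.

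Minocycline in APB5 retinas went with 2 calls among the 12 injury genes, both lower, where 0.819% of all genes were called lower, and 9 of the 12 lay lower without overlap, where 23.3% of all genes did. Fgf2 fell by 1.80 on the log2 scale (± 0.260, edgeR adjusted p = 0.0430), from 78.7 to 155 CPM in APB5 to 27.5 to 37.6 CPM in APB5+Mino. Egr1, an immediate early gene, fell by 4.04 (± 0.776, adjusted p = 0.0471), but its IgG libraries alone ranged from 91.1 to 712 CPM. The list's median was −2.90, and without APB5 replicate 3 it was −1.56, with 8 of the 12 called lower where 4.64% of all genes were called. With the replicate number as a block neither these genes nor Rgs5 passed, the smallest adjusted p of any gene being 0.0641. Leaving out APB5+Mino replicate 1, 2 or 3 also left no gene passing in this comparison. The smallest edgeR adjusted p of any gene was then 0.106, 0.0804 and 0.0552.

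The transcripts whose pattern was most like that of Edn2 across the 12 libraries, by Pearson r of log2 CPM among 15811 genes, were Fgf2os (r = 0.963), an RNA antisense to Fgf2, Cfi (0.962), the complement protease factor I, S1pr2 (0.959), a receptor for sphingosine-1-phosphate, and Tnnt2 (0.954), the cardiac form of troponin T. Gm20742, Gm32355, Gm46054 and Gm11454 followed at 0.951 to 0.947. Without APB5 replicate 3 the 8 values were 0.906 to 0.944. These points share group means, and among deviations from those means r was 0.634 for Tnnt2 and 0.934 for Fgf2os. Genes entered this search by a mean of at least 1 CPM over all 12 libraries. Mean levels of Fgf2os, Cfi and Gm20742 were 8.29, 4.76 and 2.835 CPM in APB5 and at most 0.724, 1.04 and 0.962 CPM in the other groups. They passed that filter through APB5, where Edn2 is high, so their likeness to Edn2 is partly set by the filter. For Ednra the nearest gene was another member, Ece1, at r = 0.895, which fell to 0.674 without APB5 replicate 3.

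**Figure D5:**
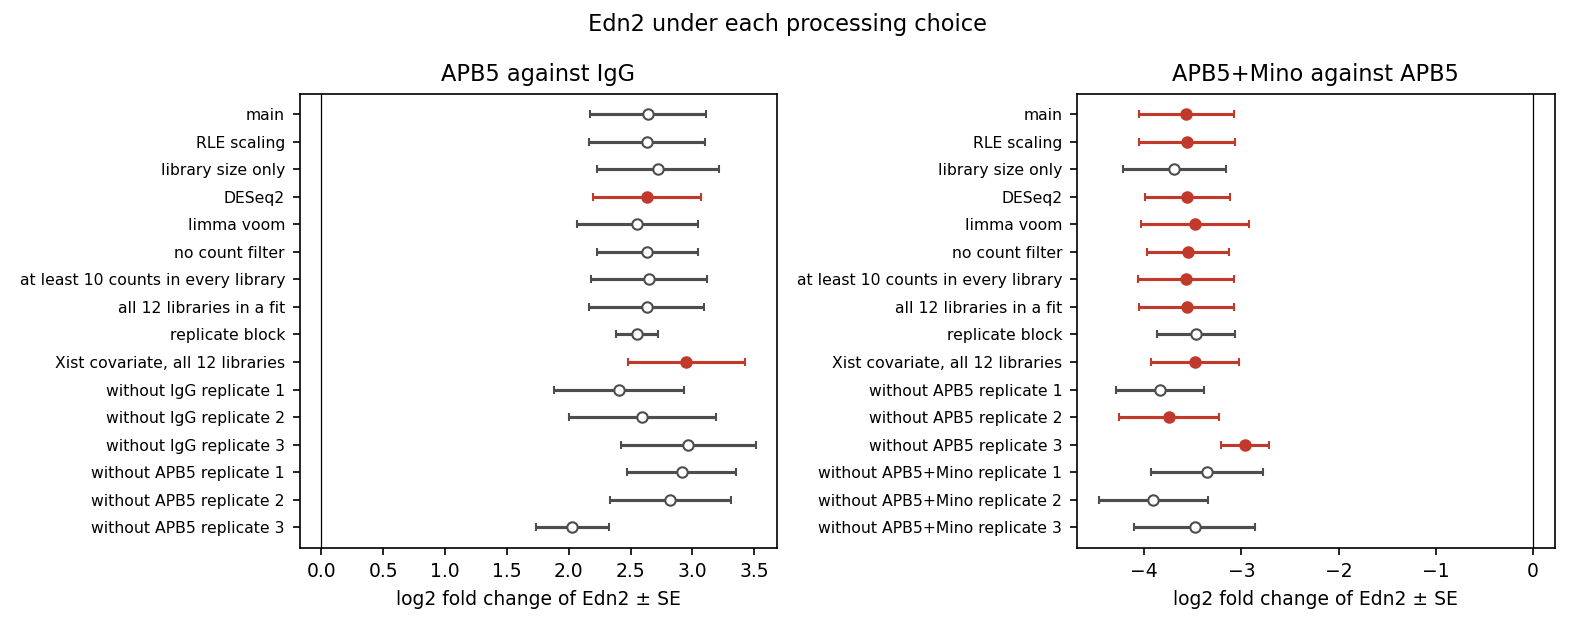
Log2 fold change of Edn2 with its SE under each processing choice, for APB5 against IgG (left) and APB5+Mino against APB5 (right); filled red points were called (adjusted p of 0.05 or less and 1 log2 unit or more). The estimates keep their direction throughout, from 2.03 to 2.97 on the left and from −3.90 to −2.96 on the right, while the call depends on the choice.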

How the data were processed

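Poly-A RNA of 12 retinal samples was sequenced as stranded single reads of 50 cycles. The authors aligned reads to mm39 with the NCBI annotation by the DRAGEN RNA pipeline, after bcl2fastq 2.20 per the labels. The pipeline's version, and whether counting used the strand, are not given in the sources used here. The deposited gene table holds each value as an unnormalized count of reads. 3 repeated columns were identical to those they repeat and were left out. The deposited transcript tables hold each group's mean normalized signal, printed as the authors' mean. Their columns of fold changes and p-values, per gene and per transcript, were not used.

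Genes were tested by edgeR 4.0.16 (R 4.3.3, filterByExpr, TMM, quasi-likelihood, two-sided) in the 2 groups compared, or in all 12 libraries for the interaction. Benjamini-Hochberg adjustment covered all genes tested. A prior count of 2 was used for log2 CPM values, and the edgeR tests kept their default prior count. Alternatives used DESeq2 1.42.0 and limma 3.58.1. SE is the log2 fold change over the root of F. Lengths are those of the GENCODE canonical transcript. Coordinates are GRCm39. Exact permutation tests of 3 against 3 libraries cannot go below 0.1. On simulated counts for APB5+Mino against APB5 (19939 genes, 200 changed 4-fold), edgeR recovered 156 with 9 unchanged genes called, DESeq2 167 with 44, and voom 157 with 11. The simulated counts varied independently between genes, with no outlying library and no shared deviation of same-numbered libraries. They were not drawn for APB5 against IgG. The shares recovered are therefore no measure of power in the real libraries.

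Replicate pairs differed by far more than counting noise (chi-square per gene at least 13.0). In APB5+Mino against APB5, same-numbered libraries correlated at 0.119 to 0.169 in their deviations from the group means and differently numbered ones at −0.133 to 0.0113, so the numbers were taken to pair them. Neither the labels nor the paper say what the numbers mark. In both groups replicate 3 was also the library high in Xist, so the pairing remains an assumption.

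The members and lists were chosen with earlier results of these data known. Named genes are the members, Pdgfrb, Xist, called genes of each of the first 4 lists below (at most 4 per direction) or, where none was called, the 2 with the smallest p, and the genes most like each member by Pearson r (8 for Edn2, 3 for the others) with a mean of at least 1 CPM. Pcsk7 was named after its values were seen. 1 gene that this rule selects is not reported here. The lists cover endothelin processing and clearance, receptor signalling, other vasoactive genes, photoreceptor injury, and markers of rods, microglia, astrocytes, endothelium, pericytes with smooth muscle, melanocytes and pigment epithelium. Further marker lists had no called gene in any comparison (cones, Müller glia, amacrine with ganglion cells, lens, cornea, red blood cells). Alternatives changed the scaling (RLE, or library size only), the tool (DESeq2, or voom), the count filter (none, or a minimum of 10 counts throughout), the libraries fitted (all 12, or 1 left out at a time), the covariates (replicate block, or Xist) and the fold threshold (none).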

Additional observations from a re-analysis of the deposited data

Results flagged for a closer look

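The minocycline log2 fold change of Edn2 after APB5 minus that after IgG was −3.57 (95% interval −4.98 to −2.16), a difference between groups with an unadjusted edgeR p of 0.000125. It fails the correction over 21228 genes (edgeR adjusted p = 0.114). All 3 APB5+Mino libraries lay under all 3 APB5 libraries, while IgG+Mino and IgG overlapped. On the IgG side, minocycline and sex cannot be told apart. For Edn2 the difference passed with DESeq2 (−3.58), without a count filter (−3.56, adjusted p = 0.0117) and with Xist as a covariate (−4.07, adjusted p = 0.0151). The Xist fit called 127 genes higher and 819 lower. Edn2 also passed without APB5 replicate 2 (−3.75, adjusted p = 0.0444) and without APB5 replicate 3 (−2.98, adjusted p = 0.0391).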

How the results depend on the processing

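With 3 libraries per group, the precision is lowest for Edn3 and Ednra (12 to 203 counts per library), and APB5 replicate 3 widens the spread of APB5. The cause of the changes below was not tested.

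In APB5 against IgG, the endothelin genes called were 0 with edgeR and 1, Edn2, with DESeq2 (2.63) and with the Xist covariate (2.95). Over all genes 0 were called, against 87 with DESeq2 (79 higher), 5 without a count filter, 7 with all 12 libraries in a fit and 1185 with the Xist covariate (1061 higher). Leaving out each library gave 0 to 21 (21 without APB5 replicate 3), with 0 members in each case. The range of log2 fold changes then was −0.32 to 0.039 for Edn1, 2.03 to 2.97 for Edn2, −0.27 to 0.43 for Edn3 and −0.020 to 0.22 for Ece2.

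In APB5+Mino against APB5, the member count of 1 became 0 with library size only (Edn2 −3.69, edgeR adjusted p = 0.0501) and with the replicate block (−3.46), and 2 with DESeq2 (Edn3 −1.07). All 337 genes called became 5 with library size only, 1531 with DESeq2, 568 without a count filter, 1642 with all 12 libraries, 0 with the replicate block, 1952 with the Xist covariate and 977 with no fold threshold. Leaving out each library gave 0 to 1797 genes and 0 to 1 member, with Edn2 from −3.90 to −2.96 and Ednra from −0.76 to 0.17.

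In IgG+Mino against IgG no member was called. All 6 genes called became 23 with DESeq2, 15 without a count filter, 1 with at least 10 counts in every library, and 0 with all 12 libraries or the Xist covariate, with 6 to 10 when a library was left out. Values near 0 changed sign: Edn2 with library size only (−0.048) and voom (−9.8e-05), Ednra (0.43), Ednrb (0.45) and Ece2 (0.20) with the Xist covariate, Ece1 with library size only (−0.066), and Ece2 with RLE scaling (0.0020) and DESeq2 (0.0020). Leaving out each library gave −0.21 to 0.36 for Edn2, −0.36 to 0.13 for Ednra, −0.15 to 0.12 for Ednrb, −0.070 to 0.091 for Ece1 and −0.042 to 0.049 for Ece2.

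In APB5+Mino against IgG+Mino no member was called under any alternative. All 249 genes called became 0 with all 12 libraries or the Xist covariate (Ece1 −0.023) and 1621 with no fold threshold, with 0 to 472 when a library was left out, Edn1 then ranging from −0.10 to 0.28 and Ednrb from −0.22 to 0.084. The call rule kept Edn2 out under the replicate block (−0.91, adjusted p = 0.0496) by its fold.

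For the interaction, 0 members became 1, Edn2, with DESeq2 (−3.58), no count filter (−3.56) and the Xist covariate (−4.07). All 3 genes called became 395, 34 and 946 under these and 0 with voom, with 0 to 113 genes and 0 to 1 member when a library was left out, Edn3 then ranging from −0.077 to 0.98, Ednra from −0.69 to 0.21 and Edn2 from −3.91 to −2.98. Edn3 was at −0.25 with the Xist covariate.

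Outside APB5+Mino against APB5 the replicate numbers were not taken to pair libraries, since at least 1 same-numbered pair correlated under 0.1 and not every library correlated best with its own number. There the replicate block moved all genes called from 0 to 0, 6 to 6 and 249 to 354, and from 3 to 4 for the interaction, and it changed no member's call.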

Other observations

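Other vasoactive systems were also measured. Of 27 peptides, receptors and enzymes, 25 were tested in APB5 against IgG, where none was called by edgeR and 6 lay higher without overlap, where 7.84% of all genes did (list median log2 fold change 0.65, against −0.0024 for all genes, and 0.18 without APB5 replicate 3). Apln, which encodes the endothelial peptide apelin, had 1.72 to 2.14 CPM in IgG and 3.57 to 4.38 CPM in APB5 (log2 fold change 1.09 ± 0.227, edgeR adjusted p = 0.664), and unlike the endothelin receptors its highest APB5 library was not replicate 3. Nos1, the neuronal nitric oxide synthase, was at 0.70 ± 0.157 (adjusted p = 0.664), and its mean was 10.6 ± 1.23 CPM in IgG and 17.1 ± 1.43 in APB5. Its mean was also 17.4 ± 4.06 CPM in IgG+Mino and 15.8 ± 2.71 in APB5+Mino. For Nos1, too, every IgG library (at most 11.3 CPM) lay under all libraries of the other groups, so the difference is not particular to APB5.

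With minocycline after APB5, 2 of 26 tested genes were called, both lower, where 0.819% of all genes were called lower. Without APB5 replicate 3, 6 were called lower and 1 higher, with Apln among them and Ramp2 not, where 4.64% of all genes were called. Apln fell by 1.40 on the log2 scale (± 0.240, edgeR adjusted p = 0.0461) to 1.13 to 1.79 CPM. Ramp2, which partners the adrenomedullin receptor, fell by 1.09 (± 0.233, adjusted p = 0.0496), from 6.66 to 10.9 CPM in APB5 to 3.63 to 4.03 CPM. Endothelial markers, with 10 of 10 detected, summed to 287 to 354 CPM in APB5 and 201 to 227 CPM in APB5+Mino, and their part in these values was not tested. With the replicate number as a block neither gene passed, and neither passed when any APB5+Mino library was left out.

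The genes most like the other members, by Pearson r of log2 CPM over 12 libraries, were Ppp2r3c (0.941), Pdcd4 (0.921) and Llph (0.910) for Edn1, and Dio3 (0.924), Cldn2 (0.921) and Bmp2 (0.921) for Edn3. For Ednra Icosl and Fblim1 followed Ece1 at 0.883. For Ednrb they were Plp2 (0.938), Slc11a1 (0.937) and Arf4 (0.934), for Ece1 Nek6 (0.968), Ddr1 (0.952) and Dlk1 (0.948), and for Ece2 Stbd1 (0.957) and Phgdh (0.955). Slc11a1 and Dlk1 had means of 3.27 and 3.41 CPM in APB5 and at most 1.02 and 0.243 CPM in the other groups. Both passed the filter on mean level through APB5, so their r is partly set by it. Without APB5 replicate 3 the r values for the Ednra and Ednrb genes were 0.633 to 0.732, while those for the Edn1 and Edn3 genes were 0.893 to 0.943.

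In windows of 250 bases before to 50 after each start site (RefSeq promoters), the Edn2 promoter held 1 match to GCGTG and none to ACGTG or TGANTCA on either strand. Over 32851 promoters 32.4% held GCGTG, 19.6% ACGTG and 7.81% TGANTCA, and no member's promoter held TGANTCA.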
